A study of Mus musculus with 2 samples.

Results

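Cathepsins are proteases of lysosomes and related compartments. The 9 genes described here were selected by symbol, with earlier results of these data known, and all 9 were found among the 43346 Ensembl genes of the tables. They are the serine carboxypeptidase gene Ctsa, the aspartic protease genes Ctsd and Ctse, and the cysteine protease genes Ctsb, Ctsc, Ctsh, Ctsl, Ctss and Ctsz. The samples were livers of B6NCrl mouse embryos at embryonic day 16.5, pooled across males and females, with no transgene or treatment named. They form 1 group of 2 biological replicates, each sequenced as a library of total RNA above 200 nt. The replicate 2 pool held 41 embryos, no number is given for replicate 1, and both carry the same donor identifier, so the spread between the 2 libraries may be partly technical. There is no second condition. The measurements therefore answer which cathepsin genes the fetal liver expressed, at what level, as which transcripts, and how far the 2 libraries differed, and no p-value was computed.

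Most cathepsins are made as inactive proenzymes, tagged with mannose 6-phosphate in the Golgi and carried to acid compartments, where the propeptide is removed. There they degrade proteins delivered by endocytosis and autophagy, and cystatins hold the cysteine forms in check outside the lysosome. In fetal liver the possible sources include hepatocytes, erythroid cells in the course of maturing, macrophages that take up expelled red cell nuclei, and developing granulocytes. In bulk RNA, fewer cells of a type and less RNA per cell cannot be told apart.

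All 9 genes were expressed, over a wide range of levels. The measure is TPM, a gene's abundance per length relative to all transcripts of its library. Each of the 9 stood at 1 TPM or more in both libraries, against 27.9% of all Ensembl genes (12097 of 43346). At 100 TPM or more in both stood 5 of them, and the share of all genes at that threshold was not computed. By mean TPM, Ctsz, the lowest of these 5, ranked 870 among the 43346 genes. The summed level of the 9 was 1313 TPM in replicate 1 and 1318 TPM in replicate 2, which is 0.131% and 0.132% of all TPM of the library. Ctsd was the highest and Ctse the lowest, and their ratio was 14.2 in replicate 1 and 12.2 in replicate 2. The libraries held 44477766 expected counts in replicate 1 and 48820712 in replicate 2, and each member drew between 1792 and 69810.1 of them per library.

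**Figure D1:**
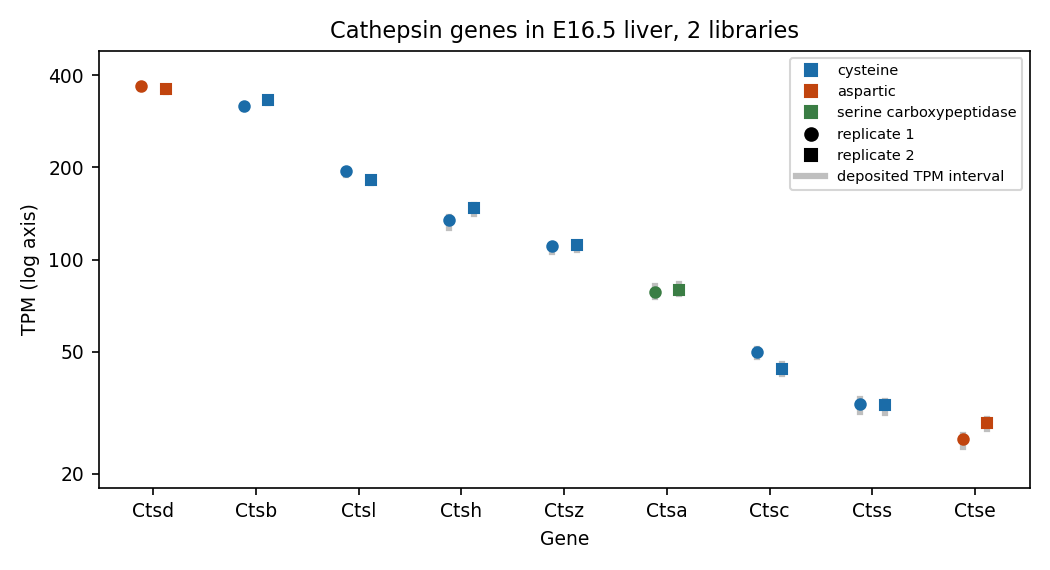
TPM of the 9 cathepsin genes on a log axis, in falling order of their mean, with replicate 1 as a circle and replicate 2 as a square. Grey bars are the deposited TPM intervals and colour gives the catalytic class. The order from Ctsd, at 369 and 359 TPM, to Ctse, at 25.9 and 29.4 TPM, is the same in both libraries.

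For 4 of the genes, an annotated alternative exon end or skipped exon inside the coding sequence is shown here, and the tables divided their reads between the versions. The members were not searched for every such difference. The junctions shown are among the bases that separate the named versions of Ctsd, Ctse, Ctsh and Ctss. Sequences are from the GENCODE M21 transcripts on GRCm38, the build also called mm10, read 5′ to 3′ along the gene, with the bases at the junction that only the first of the 2 models shown holds in capitals. The models also differ elsewhere in GENCODE M21, so their shares rest on more than these bases.

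Ctss encodes a cysteine endopeptidase that cuts the invariant chain of MHC class II molecules in antigen-presenting cells. In the coding sequence its versions differ by 3 bases, or 1 codon, at chr3:95529434-95529436 on the plus strand, where an exon starts at either of 2 neighbouring positions. Ctss-202 holds 3 bases elsewhere that Ctss-201 lacks, so both are 1355 nt long.
Ctss-201: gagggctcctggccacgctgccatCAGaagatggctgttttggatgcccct
Ctss-202: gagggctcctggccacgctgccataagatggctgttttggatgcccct

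Ctsd encodes cathepsin D, the main aspartic endopeptidase of lysosomes. Its versions differ there by 18 bases, or 6 codons, at chr7:142377333-142377350 on the minus strand, and Ctsd-202 holds 187 further bases that Ctsd-201 lacks.
Ctsd-202: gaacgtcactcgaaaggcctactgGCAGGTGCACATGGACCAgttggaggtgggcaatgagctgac
Ctsd-201: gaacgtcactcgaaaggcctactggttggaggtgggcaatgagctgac

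Ctse encodes cathepsin E, an aspartic protease of endosomes known from stomach, lymphoid cells and red cell membranes. Ctse-202 skips an exon of 99 bases, or 33 codons, at chr1:131672445-131672543 on the plus strand, and lacks 190 further bases of Ctse-201.
Ctse-201: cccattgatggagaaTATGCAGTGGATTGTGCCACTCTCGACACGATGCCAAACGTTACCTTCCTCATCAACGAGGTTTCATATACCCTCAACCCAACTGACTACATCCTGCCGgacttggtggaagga
Ctse-202: cccattgatggagaagacttggtggaagga

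Ctsh encodes cathepsin H, a cysteine protease that acts mainly as an aminopeptidase. Ctsh-202 skips an exon of 106 bases at chr9:90061519-90061624 on the plus strand, and 106 bases are not a whole number of codons. Ctsh-204 holds 102 further bases that Ctsh-202 lacks, and Ctsh-202 holds 815 that Ctsh-204 lacks.
Ctsh-204: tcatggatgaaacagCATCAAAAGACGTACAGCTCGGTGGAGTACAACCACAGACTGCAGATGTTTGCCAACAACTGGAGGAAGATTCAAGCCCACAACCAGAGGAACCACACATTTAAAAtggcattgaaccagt
Ctsh-202: tcatggatgaaacagtggcattgaaccagt

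**Figure D2:**
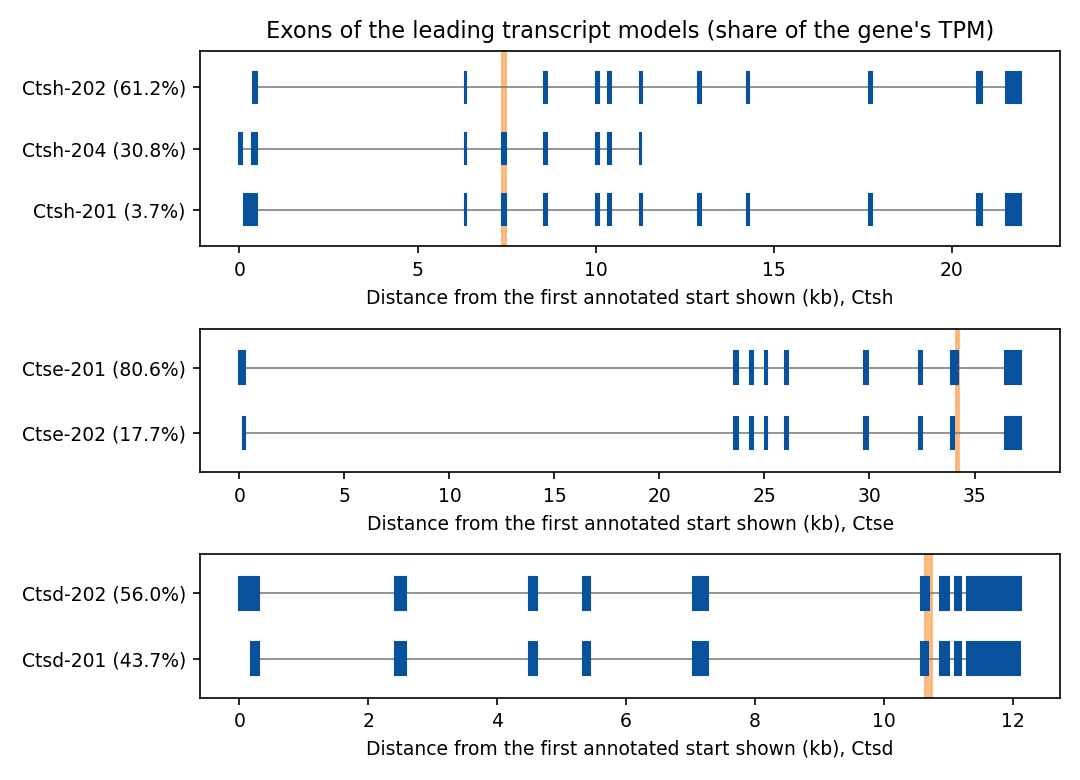
Exons of the transcript versions of Ctsh, Ctse and Ctsd, drawn to scale along the gene by distance in kb, with the mean share of the gene's TPM beside each model. The band marks the junction bases printed in capitals, 106 in Ctsh, 99 in Ctse and 18 in Ctsd, and is drawn wider than these bases so that it can be seen.

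Among the aspartic proteases, Ctsd was the most abundant cathepsin gene of the liver. Ctsd stood at 369 TPM in replicate 1 and 359 TPM in replicate 2, a mean of 364 ± 6.72 (SD, n = 2). Ctse stood at 25.9 TPM in replicate 1 and 29.4 TPM in replicate 2 (27.7 ± 2.44). Both were well expressed, and the level of Ctsd was 13.2 ± 1.41 times that of Ctse (SD, n = 2). Ctsd (ENSMUSG00000007891.11) lies at chromosome 7, 142375911 to 142388038, on the minus strand, and Ctse (ENSMUSG00000004552.12) at chromosome 1, 131638306 to 131675505, on the plus strand.

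Markers of the stomach, a neighbouring organ and a known site of Ctse, were at low levels. Of 10 stomach markers, 2 reached 1 TPM in both libraries and 2, the mucus gene Muc5ac and Gkn1, were at 0 in both. The summed level of the list was 6.35 TPM in replicate 1 and 6.75 TPM in replicate 2. The highest were the proton pump gene Atp4a, at 3.49 and 3.34 TPM, the mucin gene Muc6, at 2.70 and 2.45 TPM, and Tff1, listed at 0 in replicate 1 and at 0.45 TPM in replicate 2. The 10 erythroid markers were all expressed, with medians of 347 TPM in replicate 1 and 342 TPM in replicate 2 and sums of 4747 and 4788 TPM. They ran from Gata1, the erythroid transcription factor, at 89.0 and 93.4 TPM, to Alas2, the first enzyme of haem synthesis, at 1237 and 1330.1 TPM, with the membrane protein gene Slc4a1 at 946 and 999 TPM. The part of either source in the Ctse level was not tested.

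Of the 9 genes, the 6 cysteine cathepsins together carried most of the transcripts. They held 64.0% of the summed cathepsin TPM in replicate 1 and 64.5% in replicate 2 (64.2% ± 0.374, SD, n = 2). The aspartic forms held 30.0% and 29.5% (29.8% ± 0.405), and Ctsa held 5.99% and 6.03% (6.01% ± 0.0308). The class order was therefore the same in both libraries, and the differences between classes were far larger than those between libraries. The classes hold 6, 2 and 1 genes, so these sums also reflect the number of genes and are not levels per gene.

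Ctsb and Ctsl, which encode broad cysteine endopeptidases, led the class. Ctsb, whose product can also remove dipeptides from the C-terminal end of proteins, stood at 317 TPM in replicate 1 and 331 TPM in replicate 2 (324 ± 10.0). Ctsl stood at 195 TPM in replicate 1 and 182 TPM in replicate 2 (189 ± 8.78). Ctsb was the higher in both libraries, by more than the spread of either gene. Ctsb (ENSMUSG00000021939.7) lies at chromosome 14, 63122462 to 63145923, on the plus strand, and Ctsl (ENSMUSG00000021477.8) at chromosome 13, 64359337 to 64370890, on the minus strand.

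Ctsb drew the most reads of the family, though it was not the highest per length. It held 61848 expected counts in replicate 1 and 69810.1 in replicate 2, against 29849 and 31277 for Ctsd, so that the ratio of Ctsb to Ctsd was 2.07 and 2.23 in counts but 0.859 and 0.921 in TPM. The order between those 2 genes thus depends on the quantity, and TPM is the one that allows for transcript length. In both libraries the TPM of both genes lay above its own deposited interval.

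The exopeptidases formed the middle of the range. Ctsh stood at 134 TPM in replicate 1 and 148 TPM in replicate 2 (141 ± 9.54). Ctsz, a carboxypeptidase that removes single residues, stood at 110.3 TPM in replicate 1 and 112 TPM in replicate 2 (111 ± 0.898). Ctsc, the dipeptidyl peptidase that activates the serine proteases of granulocyte and mast cell granules, stood at 49.96 TPM in replicate 1 and 43.98 TPM in replicate 2 (47.0 ± 4.23). The 3 genes did not overlap in level. Ctsh (ENSMUSG00000032359.10) lies at chromosome 9, 90054152 to 90076089, Ctsz (ENSMUSG00000016256.10) at chromosome 2, 174427493 to 174439039, and Ctsc (ENSMUSG00000030560.12) at chromosome 7, 88278085 to 88310888, with Ctsz on the minus strand and the others on the plus strand.

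Ctss was the lowest cysteine form among the 9. It stood at 33.9 TPM in replicate 1 and 33.5 TPM in replicate 2 (33.7 ± 0.276), and Ctsl was 5.60 ± 0.215 times as high (SD, n = 2). Ctss (ENSMUSG00000038642.6) lies at chromosome 3, 95526786 to 95556403, on the plus strand. Cd74, which encodes the invariant chain that the Ctss product cuts, stood at 9.88 TPM in replicate 1 and 10.2 TPM in replicate 2, or 0.298 ± 0.00958 times Ctss. The RNA of Ctss was thus above that of this known substrate in both libraries.

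Markers of the cells that are known for Ctss were present at unequal levels. Of 14 macrophage markers, 13 reached 1 TPM in both libraries, and their sum was 462 TPM in replicate 1 and 503 TPM in replicate 2. The complement genes C1qb, at 114 and 124 TPM, and C1qa, at 59.9 and 66.2 TPM, and the macrophage-secreted protein gene Cd5l, at 72.2 and 75.04 TPM, were the highest, and the scavenger receptor gene Cd163 was the lowest at 0.26 and 0.31 TPM. Of 8 B cell and antigen presentation markers, 6 reached 1 TPM, with a sum of 35.3 TPM in replicate 1 and 42.6 TPM in replicate 2. The B cell receptor genes Cd79a, at 9.25 and 12.1 TPM, and Cd79b, at 9.95 and 10.7 TPM, and the MHC class II gene H2-Ab1, at 7.07 and 9.51 TPM, led that list, and Ms4a1 was the lowest at 0.07 and 0.10 TPM. The share of Ctss from each of these cells was not tested.

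Ctsa, whose product is a carboxypeptidase and also shields the sialidase and beta-galactosidase of lysosomes, stood at 78.6 TPM in replicate 1 and 79.5 TPM in replicate 2 (79.1 ± 0.615). Ctsa (ENSMUSG00000017760.11) lies at chromosome 2, 164832873 to 164841032, on the plus strand. The genes of both shielded enzymes, named after their values were seen, were lower. The sialidase gene Neu1 stood at 15.6 TPM in replicate 1 and 17.9 TPM in replicate 2, or 0.212 ± 0.0196 times Ctsa. The beta-galactosidase gene Glb1 stood at 12.5 TPM in replicate 1 and 16.2 TPM in replicate 2, or 0.182 ± 0.0312 times Ctsa.

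From highest to lowest the order was Ctsd, Ctsb, Ctsl, Ctsh, Ctsz, Ctsa, Ctsc, Ctss and Ctse. All 8 neighbouring pairs in this order were separate, in that neither the ranges of the 2 libraries nor the deposited TPM intervals of either library overlapped. The closest pair by ratio of means was Ctsd over Ctsb, at 1.12, and the widest gap was Ctsb over Ctsl, at 1.72. The place of Ctsh depends on the length that the tables used. With the expected counts of each gene divided by the length of its longest coding transcript, an alternative chosen after seeing the data, Ctsh averaged 88.0 ± 5.53 and stood below Ctsz at 111. Ctsa then averaged 46.1, and the other members kept their ranks. The gap between Ctsc and Ctss also narrowed, with means of 36.5 ± 3.59 and 33.7 and values of 34.0 and 33.5 in replicate 2.

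Some members share sequence with other genes, and the labels name no strand-specific step. Exons of Ctsb and of the squalene synthase gene Fdft1 overlap on opposite strands over 774 bases, or 12.8% of the exon bases of Ctsb, and Fdft1 stood at 75.95 and 81.3 TPM. Exons of Ctsa overlap Pltp by 495 bases (10.5%), at 20.3 and 23.9 TPM, and Neurl2 by 324 bases (6.87%), at 1.52 and 2.18 TPM, also on the opposite strand. Expected counts of Ctsa, Ctsb and Ctsd were not whole, and those of the other 6 were within 0.01 of a whole number. In GENCODE M21, exons of Ctsd also overlap Gm49369 on the same strand over 808 bases (34.4%), and exons of Ctsl overlap the antisense gene Gm47123 over 1742 bases (26.8%) and the pseudogene Gm49230 over 395 bases (6.09%), none of which were in the tables. The part of any overlap in the level of a member was not tested.

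Of the members, 6 had more than 1 transcript model, and 45 models of the 9 genes were listed in all. The same transcript led in both libraries for each of the 9 genes, and 8 of the 9 leading transcripts are annotated as protein coding. Ctsb, Ctsl and Ctsz had a single model each, so their shares carry no information. Shares below are of the gene's TPM, as estimated by the authors' program from reads that the models largely share.

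Ctsh was the member led by a model that is not annotated as protein coding. Ctsh-202, which lacks the 106-base exon, held 61.1% of Ctsh TPM in replicate 1 and 61.4% in replicate 2 (61.2% ± 0.207, SD, n = 2), and its level was 82.0 and 90.7 TPM. GENCODE M21 gives it a coding sequence of 123 nt and places it in the class of nonsense-mediated decay, the pathway that degrades messages with an early stop codon. Ctsh-204, which holds the exon, was at 30.4% and 31.2% (30.8% ± 0.524). By expected counts, which are not divided by length, Ctsh-204 held 17.0% and 17.6%, and Ctsh-202 held 73.2% and 74.0%. Ctsh-201, the model with the full coding sequence of 999 nt, named after its values were seen, was at 4.45% and 2.94% (3.69% ± 1.07).

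Grouping the Ctsh models by that exon gave the same picture in both libraries. The 5 models that hold it made up 36.3% and 36.9% of Ctsh TPM (36.6% ± 0.450), the 2 that lack it 61.5% and 61.4% (61.5% ± 0.0823), and the 4 that do not reach it 1.94% on average. The division rests on a short model. Ctsh-204 is 631 nt long and ends before the last 5 of the 12 exons of Ctsh-201, while Ctsh-202 covers 1238 of the 1617 bases of Ctsh-201. Of those 1617 bases, 239 lie in neither Ctsh-202 nor Ctsh-204, 271 bases of the first exon of Ctsh-201 lie before the start of Ctsh-202, and reads over the shared bases were divided by the authors' program. Reads across the 106-base exon itself were not analysed here, so the share of messages that skip it was not measured directly.

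Both long versions of Ctsd were abundant. Ctsd-202, with the 18 extra bases, held 57.7% of Ctsd TPM in replicate 1 and 54.3% in replicate 2 (56.0% ± 2.39), at 213 and 195 TPM. Ctsd-201, without them, held 42.1% and 45.4% (43.7% ± 2.36), at 155 and 163 TPM. The deposited intervals of the 2 versions did not overlap in either library. Their lengths in the tables are 2128 and 1887 nt, against 2127 and 1922 nt in GENCODE M21, so the older models used for the tables differ from the ones drawn here, and the 18 bases were not checked in them.

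Most of the Ctse TPM was assigned to the model with the exon of 99 bases. Ctse-201, which includes it, was at 83.6% of Ctse TPM in replicate 1 and 77.7% in replicate 2 (80.6% ± 4.15), and Ctse-202, which skips it, at 14.98% and 20.4% (17.7% ± 3.86). The levels of Ctse-202 were 3.89 and 6.01 TPM, and their deposited intervals, 1.32 to 6.25 and 2.92 to 8.37 TPM, overlapped. The difference in share between the libraries is thus within that uncertainty. The 2 models differ in 190 further bases, and reads across the 99-base exon itself were not analysed here.

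Most of the Ctss TPM was assigned to the version whose coding sequence is shorter by 1 codon. Reads across that junction were not analysed here. Ctss-202 held 92.6% of Ctss TPM in replicate 1 and 93.3% in replicate 2 (93.0% ± 0.510), and Ctss-201, named after its values were seen, held 7.41% and 6.68% (7.05% ± 0.510). Of the remaining genes, Ctsa had 17 models, of which Ctsa-202 held 72.9% in replicate 1 and 79.0% in replicate 2 (75.9% ± 4.34). Ctsc had 5 models, and Ctsc-201 held 91.3% and 89.5% (90.4% ± 1.30). No other model of these genes averaged 10% or more.

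**Figure D3:**
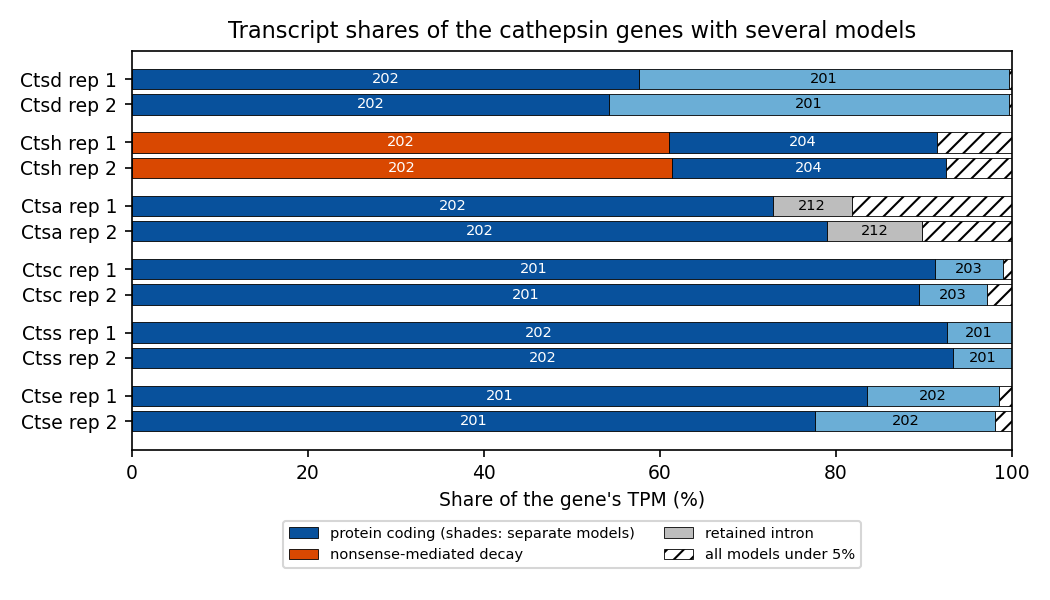
Share of each transcript model in its gene's TPM, in percent, for the 6 cathepsin genes with several models, with a bar for each library. Shades of blue are separate protein-coding models, orange is the nonsense-mediated decay model, grey other classes, and hatching sums the models with a mean share under 5%. Ctsh-202 holds 61.1% and 61.4% of Ctsh in replicate 1 and replicate 2. Ctsd-202 holds 57.7% and 54.3% of Ctsd, and Ctsd-201 holds 42.1% and 45.4%.

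The other cathepsin genes were lower than most of the 9. Of 5 further cathepsins, 3 reached 1 TPM in both libraries. Ctsg, a serine protease of neutrophil granules, stood at 35.3 TPM in replicate 1 and 29.2 TPM in replicate 2. The cysteine forms Ctsf, at 12.2 and 13.2 TPM, and Ctso, at 6.34 and 7.14 TPM, followed, and Ctsk, known from osteoclasts, at 1.13 and 0.89 TPM, and Ctsw, known from cytotoxic lymphocytes, at 0.27 and 0.35 TPM, were the lowest. Ctsg overlapped in level with Ctss and Ctse, while the other 4 were below all 9 members.

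The cathepsin genes of the rodent placental cluster, relatives of Ctsl, were not detected beyond a single count. Ctsj had 0 counts in replicate 1 and 1 in replicate 2. The other 8 (Ctsm, Ctsq, Ctsr, Cts3, Cts6, Cts7, Cts8 and Ctsll3) were at 0 in both libraries, where 3 expected counts, the limit taken for a count of 0, would be between 0.0276 and 0.0645 TPM depending on gene and library. The 6 placental trophoblast markers, among them Prl3d1 and Prl3b1, were also at 0 in both.

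Among the listed genes of cathepsin inhibitors, Kng1, Stfa1 and BC100530 stood above every cathepsin, and the others stood below Ctsd. Of 13 inhibitor genes, 12 stood at 1 TPM or more. Their list had medians of 87.6 TPM in replicate 1 and 82.6 TPM in replicate 2, against 110.3 and 112 TPM for the 9 cathepsins. Kng1, which encodes kininogen, a plasma protein with cystatin domains, was the highest at 1142 and 1167 TPM, or 6.13 ± 0.379 times Ctsl (SD, n = 2). The stefin A gene Stfa1 stood at 939 and 976 TPM, or 2.96 ± 0.0120 times Ctsb, and the related gene BC100530 at 459 and 482 TPM. These 2 genes belong to a family of near-identical copies and their expected counts were not whole, so their levels are uncertain. Cst6 was the lowest, with 0 TPM in replicate 1 and 0.05 TPM in replicate 2.

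Genes for sorting and for partner proteins were all expressed. The 9 genes of mannose 6-phosphate tagging and sorting had medians of 13.5 TPM in replicate 1 and 14.99 TPM in replicate 2, led by the receptor gene M6pr at 76.8 and 72.8 TPM, the adaptor gene Gga2 at 28.4 and 30.0 TPM and Gnptg, a subunit of the tagging enzyme, at 15.6 and 17.3 TPM. The sorting receptor gene Sort1 was the lowest at 1.46 and 2.17 TPM. Of 6 processing enzymes and partners, progranulin (Grn), which cathepsins cut into granulins, stood at 91.8 and 104 TPM and prosaposin (Psap), a substrate of cathepsin D, at 73.5 and 71.7 TPM. Legumain (Lgmn), which processes several cysteine cathepsins, stood at 74.9 and 74.0 TPM, or 0.395 ± 0.0150 times Ctsl.

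The transcription factors known to drive lysosome genes were at low levels. Tfe3 stood at 8.44 and 9.93 TPM, Tfeb at 4.82 and 5.14 TPM, Tfec at 3.55 and 3.25 TPM and Mitf at 0.30 and 0.35 TPM, in replicate 1 and replicate 2. All 4 were below all 9 cathepsins. The median of the 4 depends on the estimate, at 4.19 TPM as given and 8.02 with the deposited posterior mean TPM. RNA levels say nothing of the activity of these factors.

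Compared with the other lysosomal hydrolases listed, the 9 cathepsins described here stood high. The 22 other lysosomal hydrolases listed were all at 1 TPM or more, with medians of 22.1 TPM in replicate 1 and 24.3 TPM in replicate 2, against 110.3 and 112 TPM for the 9 cathepsins. By mean level, 7 of the 9 cathepsins were above the highest of these hydrolases, the acid lipase gene Lipa at 44.6 and 45.4 TPM, and all 9 were above the hydrolase median. The lowest of the 7, Ctsc, was above Lipa in replicate 1 and below it in replicate 2, so those 2 genes did not differ beyond their spread. Acid ceramidase (Asah1), at 44.5 and 42.7 TPM, and tripeptidyl peptidase (Tpp1), at 35.3 and 38.5 TPM, came next, and Galc, the galactosylceramidase gene, was the lowest at 1.49 and 1.87 TPM. Of the 5 further cathepsins, Ctsg, at a mean of 32.2 TPM, was also above the hydrolase median. The means of Ctsf, Ctso, Ctsk and Ctsw, at 12.7, 6.74, 1.01 and 0.31 TPM, were below it. The 10 genes of the lysosome membrane and proton pump reached similar levels to the cathepsins at the top, with Atp6v0c, a subunit of the pump, at 310.4 and 333 TPM, Lamp1 at 157 and 169 TPM and Cd63 at 116 and 102 TPM, and medians of 63.4 and 62.5 TPM. Their lowest was the cholesterol exporter gene Npc1, at 8.29 and 8.04 TPM.

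**Figure D4:**
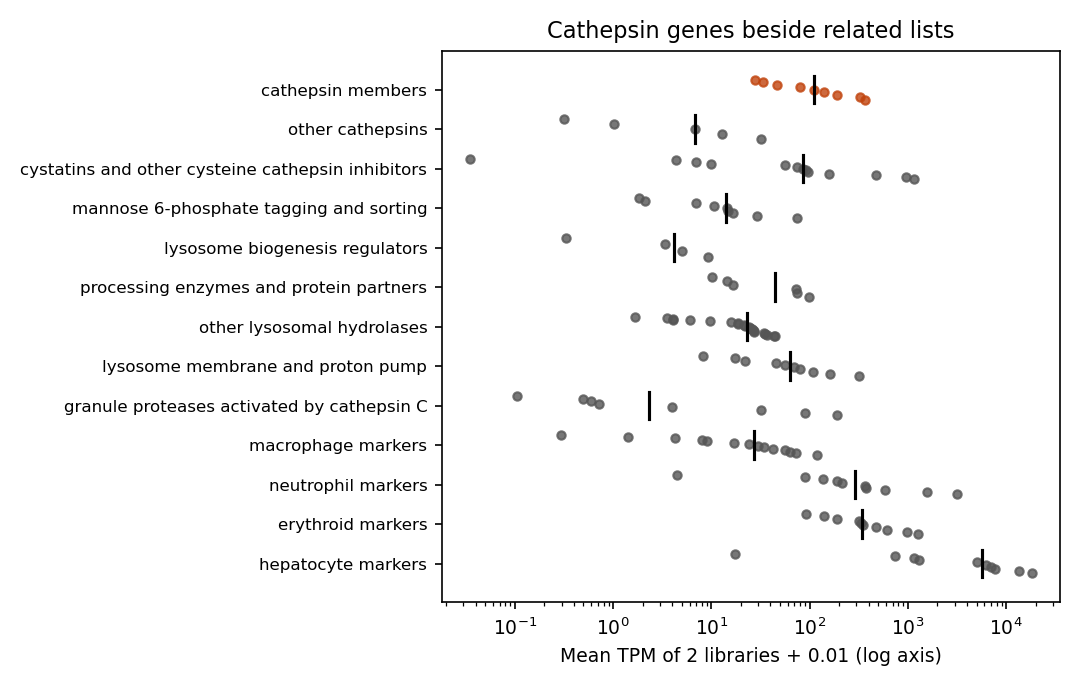
TPM of the 9 cathepsin genes and of the members of the listed gene groups, on a log axis after adding 0.01 TPM, with each point the mean of the 2 libraries for a gene and a line at the median of each group. The 9 cathepsins lie between 27.7 and 364 TPM, above the median of the other lysosomal hydrolases.

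Ctsc was accompanied by genes for the granule proteases that its product activates. Of 8 such genes, 4 reached 1 TPM in both libraries. Neutrophil elastase (Elane) stood at 195 TPM in replicate 1 and 189 TPM in replicate 2, or 4.10 ± 0.284 times Ctsc, proteinase 3 (Prtn3) at 93.4 and 84.6 TPM, or 1.90 ± 0.0389 times Ctsc, and Ctsg at 0.685 ± 0.0306 times Ctsc (SD, n = 2). The mast cell protease gene Mcpt4 was the lowest, with 0.19 TPM in replicate 1 and 0 in replicate 2. All 10 neutrophil markers were expressed, with sums of 6474 and 6855 TPM, led by S100a8 at 3107 and 3183 TPM, S100a9 at 1530.3 and 1575 TPM and Ngp at 514 and 666 TPM, and with Csf3r the lowest at 4.03 and 4.89 TPM. The 10 hepatocyte markers were all present too, from the transcription factor gene Hnf4a at 16.6 and 18.5 TPM up to Apoa2 at 7676 and 7737 TPM, Afp at 13667 and 13629 TPM and Trf at 16577 and 19839 TPM. The defining markers of the labelled tissue were thus all expressed.

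The 2 libraries gave near-equal cathepsin levels. For each gene, TPM + 1 in replicate 1 was divided by TPM + 1 in replicate 2, and the log2 of this ratio was centred on its median over the 12017 genes that averaged at least 100 expected counts. Of the 9 members, 0 differed by 1.5-fold or more, against 1.13% of all genes tested (136 of 12017). Among the 3882 genes whose mean count lay in the members' range the share was 0.283%, so 0 of 9 is close to what genes of this depth showed. The median absolute difference was 0.056 for the 9 members and 0.11 for all genes tested, both on the log2 scale. The genes tested include many with fewer counts than any member, whose lowest was 1792. No such median was computed for the 3882 genes in the members' range.

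Ctsc differed most, at 0.20 on that log2 scale, with 49.96 TPM in replicate 1 and 43.98 TPM in replicate 2. Its exact 95% counting interval, from the 5112 and 4805 expected counts, was 0.16 to 0.27 around a log2 count ratio of 0.21. Ctse was lowest relative to replicate 2, at -0.16, with a log2 count ratio of -0.15 and a counting interval of -0.24 to -0.071 from 2159 and 2618 expected counts. The counting interval included 0 for Ctss and Ctsz and excluded it for the other members. The share of all genes whose interval excluded 0 was not computed, so this says nothing particular to the members. The counting interval takes no account of effective length, which for Ctsa was 2016 nt in replicate 1 and 2123 nt in replicate 2. Ctsa had a log2 count ratio of -0.078 but stood at 0.0027 on the centred TPM scale. All 9 ratios lay inside the range from -0.32 to 0.26, between the 5th and 95th percentiles of all genes tested. That set includes genes with fewer counts than any member.

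The other members were closer to equal. Ctsl, at 0.11, and Ctsd, at 0.056, were higher in replicate 1, and Ctsh, at -0.12, and Ctsb, at -0.044, were lower in replicate 1. Ctss at 0.035, Ctsa at 0.0027 and Ctsz at 0.0020 differed so little that their deposited TPM intervals overlapped between the libraries. The direction for Ctsa and Ctsz turned when the ratio was not centred. The deposited intervals of 6 members did not overlap between libraries, against 25.4% of all genes tested and 43.3% of the 3882 genes in the members' count range, and those intervals carry no stated level. With 1 library against 1, a difference between the pools has no replicate check.

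**Figure D5:**
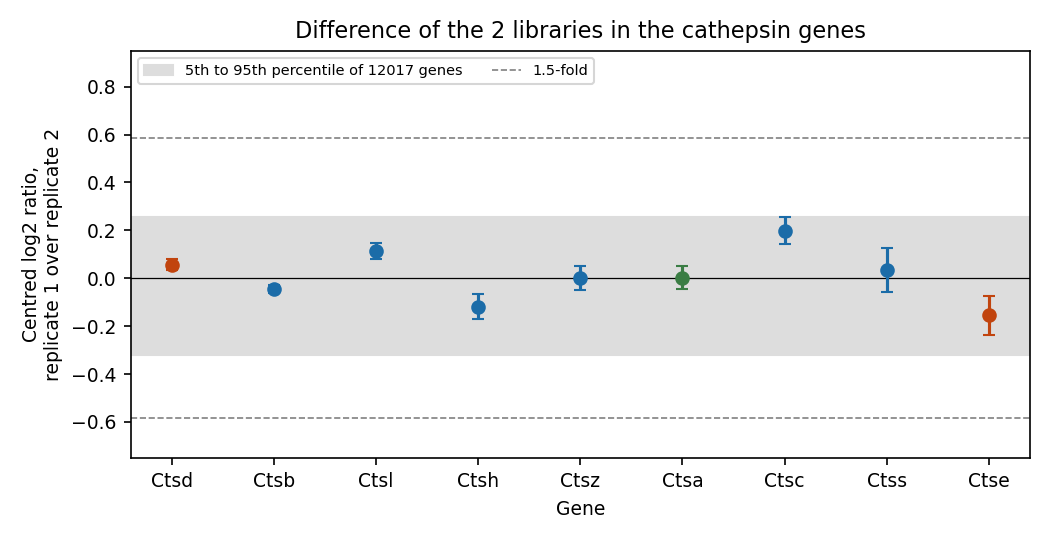
Centred log2 of TPM + 1 in replicate 1 over that in replicate 2 for each cathepsin gene, with dashed lines at 1.5-fold. Each bar is placed around that ratio and is as wide as the exact 95% counting interval of the expected counts, which covers counting error only. The bar of Ctsa therefore spans 0, while its counting interval, around the count ratio, did not. The shaded band from -0.32 to 0.26 spans the 5th to 95th percentile of the 12017 genes tested, and all 9 points lie inside it, from -0.16 for Ctse to 0.20 for Ctsc.

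Marker lists of possible source cells differed between the libraries to unequal degrees. Of all 12017 genes tested, 6008 were higher in replicate 1, and the median absolute ratio was 0.11. Lists that mark no source cell shifted too. The median ratio was -0.10 for the other lysosomal hydrolases, with 4 of 22 higher in replicate 1. It was -0.090 for the processing enzymes and partners (2 of 6 higher) and 0.038 for the lysosome membrane and proton pump (6 of 10 higher). The granule protease genes that go with Ctsc had a median ratio of 0.11 over their 4 tested members, with 3 of the 4 higher in replicate 1 and Gzma, named after its values were seen, at -0.57. The neutrophil markers had a median of -0.079, with 3 of 10 higher in replicate 1 and Ngp lowest at -0.36. Macrophage markers had a median of -0.12, with 2 of 13 higher in replicate 1, and erythroid markers a median of 0.0038, with 5 of 10 higher in replicate 1. Hepatocyte markers had a median of -0.12, with 2 of 10 higher in replicate 1, and B cell and antigen presentation markers a median of -0.21, with 1 of 6 higher in replicate 1. Their part in the differences of Ctsc and Ctse was not tested.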

How the data were processed

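Total RNA above 200 nt (10 ng per library, with spike-ins) was sequenced in 2 libraries, each a replicate of 1 group. Per the labels, the mirVana kit served for extraction and the SMARTer Ultra Low kit for the libraries. Per the text deposited beside the tables, the authors quantified genes and transcripts on mm10 with GENCODE M4. The column names are those of RSEM, and neither aligner nor versions are given in the sources used here. Deposited expected counts are estimates that need not be whole. The deposited TPM is scaled over all rows, spike-ins included, and the posterior mean TPM is the authors' second estimate. The deposited percent columns give transcript shares, which were recomputed here from TPM. The deposited FPKM entered no result. No level is stated for the deposited TPM intervals. Effective lengths in the tables were the length less 99 nt.

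Symbols, coordinates, classes and sequences came from GENCODE M21 on GRCm38, matched by gene ID without version. Of the 45 transcript models, 43 matched and 39 of them had the same length. Spike-ins took 2.50% of expected counts in replicate 1 and 3.19% in replicate 2. Expected counts on Ensembl genes summed to 43364573 and 47263435.

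Levels are means and SDs over both libraries, and "expressed" means at least 1 TPM in each. The ratio used a pseudocount of 1 and the exact (Clopper-Pearson) 95% counting interval, which covers counting error only, as reads carried no molecular identifiers. The length of the longest coding transcript was an alternative added after seeing the data. The members and the 16 gene lists were chosen with earlier results of these data known. Named genes are all 9 members, every further cathepsin, and the 3 highest and the lowest of each other list. A gene that this rule selects is not reported here, and the values of its list include it. Named transcripts lead their gene or average 10% or more of it. The ratio was tested on simulated data. Alternatives used edgeR 4.0.16 TMM factors and DESeq2 1.42.0 size factors on rounded expected counts (R 4.3.3). Other steps used python 3.11.15 with pandas 2.3.3, scipy 1.17.1, matplotlib 3.10.9 and numpy 2.4.6.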

Additional observations from a re-analysis of the deposited data

How the results depend on the processing

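No paired analysis was possible because there is 1 group. Detection of all 9 members, their order and the 9 leading transcripts held with the posterior mean TPM. The count of lists with a lower median than the 9 cathepsins also held, at 13 of 16, all but the neutrophil, erythroid and hepatocyte markers. Those lists were chosen with earlier results known and some lie at or near 0, so this count carries little information. Under the posterior mean TPM the median of the lysosome regulators was 8.02 TPM, above the other cathepsins at 6.78, while it was below them as reported. With each replicate alone the summed level was 1313 to 1318 TPM, the order held for 9 members, 9 were detected, 9 leading transcripts were the same, 13 lists had a lower median than the cathepsins, and the cysteine, aspartic and serine shares were 64.0% to 64.5%, 29.5% to 30.0% and 5.99% to 6.03%. The summed level moved with the scale, to 1301 with the posterior mean TPM, 1412 over annotated nuclear genes, 2239 over those without globin genes, 1272 and 1270.5 as counts per kb with TMM and DESeq2 factors, and 1199 with the longest coding lengths. By expected counts, 3 members kept their rank, and the shares were 71.4% cysteine, 23.5% aspartic and 5.10% serine. The posterior mean gave a serine share of 6.11%. At a threshold of 100 TPM, 5 members were detected, and the share of all genes there was not computed. Among protein-coding transcripts alone, 8 of 9 leading transcripts were the same. The members' median log2 ratio was 0.34 with spike-in scaling, which shifts the median of all genes by 0.29 and puts all 9 members higher in replicate 1. Of the 9, 6 were higher in replicate 1 as reported, and 4 without centring, with centring on all genes with a count, with a pseudocount of 5 or with the posterior mean. Ctsb, Ctse and Ctsh turned from lower to higher with spike-in scaling. For single genes, transcripts and lists, leaving aside each replicate alone, 130 values moved by less than the spread between replicates or, for ratios, stayed within a counting interval around the reported value, and 63 moved further. The 130 include shares of the single-model genes Ctsb, Ctsl and Ctsz, which could not move, and ratios for which only the centre was changed. Depth limits none of the members. The causes of these shifts, other than the scale itself, were not tested.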
